A study of Mus musculus with 6 samples.

Results

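Neuronal nicotinic acetylcholine receptors were compared between sorted mechanoreceptors and captured midline cells of the mouse embryo. The 10 genes (Chrna3, Chrna4, Chrna5, Chrna6, Chrna7, Chrna9, Chrna10, Chrnb2, Chrnb3 and Chrnb4) were taken by symbol from a table of 22869 gene symbols, by family membership and not by their values. All 10 were found, and each was read from the transcript row with the highest summed count. The mechanoreceptor group held 3 libraries, numbered 2, 8 and 9, of cells that the labels call Ret+ RA mechanoreceptors. They were sorted by fluorescence from the dorsal root ganglia, which hold the cell bodies of sensory neurons, of Ret-CreERT2; Rosa26-Tdtomato embryos. The Ret driver marked the cells after the pregnant dams were gavaged with 1.5 and 2 mg of 4-hydroxytamoxifen, and which dose belongs to which library was not given. The midline group held 3 libraries, numbered 2, 3 and 5, cut by laser from frozen, hematoxylin-stained spinal cords of wild-type embryos without a stated treatment. The labels describe these as roof plate-derived cells of the dorsal column midline. All embryos were of mixed strain and were taken at E14.5. Cell type therefore went together with tissue, isolation, genotype and tamoxifen, whose parts cannot be told apart. The labels do not say whether libraries came from separate embryos or litters, so p-values measure the spread between these libraries only.

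Nicotinic receptors are pentameric cation channels that acetylcholine opens, built from alpha subunits, which carry the principal face of the binding site, and beta subunits. The subunit mix sets the pharmacology. Chrna4 with Chrnb2 forms the main high-affinity receptor of the brain, Chrna3 with Chrnb4 the receptor of autonomic ganglia, and Chrna7 a homomeric, calcium-permeable channel. Chrna5 and Chrnb3 are accessory subunits, Chrna6 is known from dopaminergic neurons and the retina, and Chrna9 with Chrna10 forms the receptor of cochlear hair cells.

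Chrnb2 and Chrna4, the subunits of the brain-type receptor, are the pair that the comparison turns on, so their RefSeq promoter windows (build GRCm38.p6, 250 bases before to 50 after the start, 5′ to 3′ on the gene's strand) are shown first. Capitals mark the GC box, the letters GGGCGG on either strand. The Chrnb2 window lies at chr3:89764583-89764882 on the minus strand and the Chrna4 window at chr2:181039128-181039427 on the minus strand.
Chrnb2: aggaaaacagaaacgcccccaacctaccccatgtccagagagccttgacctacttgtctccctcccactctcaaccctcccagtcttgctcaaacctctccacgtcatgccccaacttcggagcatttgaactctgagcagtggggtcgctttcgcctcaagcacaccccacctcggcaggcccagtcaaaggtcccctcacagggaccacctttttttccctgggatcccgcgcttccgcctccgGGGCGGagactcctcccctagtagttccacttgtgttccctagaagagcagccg
Chrna4: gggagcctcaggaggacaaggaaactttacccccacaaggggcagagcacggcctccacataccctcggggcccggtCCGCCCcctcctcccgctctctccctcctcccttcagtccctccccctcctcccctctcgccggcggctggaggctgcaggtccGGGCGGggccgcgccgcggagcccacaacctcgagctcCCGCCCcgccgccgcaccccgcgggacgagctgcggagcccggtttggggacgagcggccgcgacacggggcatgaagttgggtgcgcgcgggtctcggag
The Chrnb2 window held 1 GC box and the Chrna4 window 3, against at least 1 in 35.7% of 32851 windows of this length. The GC content was 59% in the Chrnb2 window and 74.3% in the Chrna4 window, against a median of 52.7% over all windows. The E-box letters CANNTG stood at 2 places in the Chrnb2 window and were not in the Chrna4 window, and 72.3% of all windows held at least 1. The letters TATAAA were in neither, as in all but 13.6% of windows. The parts of the RE1 element of the neuronal repressor REST, CAGCACC (in 7.14% of windows) and GGACAG (in 22.2%), searched on both strands as all motifs were, were in neither. These matches describe letters and were not tested as sites.

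Chrnb2, the main beta subunit of brain receptors, was the 1 gene of the family, of 7 tested, that passed at an adjusted p under 0.05, and it was higher in mechanoreceptors. Of all 15314 genes tested, 37.8% passed. Mechanoreceptor libraries 2, 8 and 9 had 921, 872 and 735 counts of it, against 60, 102 and 90 in midline libraries 2, 3 and 5. In CPM, counts scaled to a common library total with the TMM factors of edgeR, this was 106, 104 and 93.9 in mechanoreceptors against 9.62, 22.8 and 14.2 in the midline. All 3 mechanoreceptor libraries stood far above all 3 midline libraries and close to each other. The means were 101 ± 6.51 CPM in mechanoreceptors and 15.5 ± 6.66 CPM in the midline (SD, n = 3 each), 6.56-fold higher in mechanoreceptors. The log2 fold change, mechanoreceptor minus midline, was 2.71 (SE 0.32, 95% interval 1.98 to 3.45, edgeR quasi-likelihood adjusted p = 0.000995). In the authors' deposited table, where the fold runs midline over mechanoreceptor, Chrnb2 had a log2 fold change of -3.03 and a false discovery rate of 4.57e-13.

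The Chrnb2 transcript overlaps another gene. In the GENCODE M21 annotation of GRCm38, 1014 of the 6399 bases of the Chrnb2 transcript also lie in an exon of Adar, an RNA-editing enzyme gene on the opposite strand. Strand was not given in the sources used here, so reads in these bases cannot be assigned to either gene. Adar itself had levels of 45.4, 55.0 and 38.3 CPM in mechanoreceptors, against 19.9, 45.3 and 39.5 CPM in the midline (log2 fold change 0.41, SE 0.32, edgeR adjusted p = 0.347). With Adar reads taken as even along its transcript, their share in the overlap was 6.62 to 9.5 CPM in mechanoreceptors, against 3.44 to 7.82 CPM in the midline. Without that share Chrnb2 kept 98.4, 94.1 and 87.2 CPM in mechanoreceptors against 6.25, 14.9 and 7.42 CPM in the midline, and its log2 fold change was 3.30 (edgeR adjusted p = 0.000656). That alternative was added after the data were seen.

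Chrna4, the alpha partner of Chrnb2 in the brain-type receptor, did not pass the test. Mechanoreceptor libraries 2, 8 and 9 had 492, 446 and 291 counts of it, against 243, 245 and 370 in midline libraries 2, 3 and 5, or 56.7, 53.0 and 37.2 CPM in mechanoreceptors against 39.0, 54.7 and 58.4 CPM in the midline. The groups overlapped throughout. The log2 fold change was -0.05 (SE 0.25, 95% interval -0.63 to 0.53, edgeR adjusted p = 0.892), so a 2-fold difference in either direction lay outside the interval. The sign turned to 0.042 with no count filter and with some libraries left out, none of which made a call.

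The ratio of Chrnb2 to Chrna4 counts within a library does not depend on library scaling. It was 1.87, 1.96 and 2.53 in mechanoreceptors and 0.247, 0.416 and 0.243 in the midline. Chrnb2 had more counts than Chrna4 in 3 of 3 mechanoreceptor libraries and fewer in 3 of 3 midline libraries. These counts hold the reads in the Adar overlap. Without an even share of Adar, Chrnb2 kept 853, 792 and 683 counts in mechanoreceptors and 39, 67 and 47 in the midline. The mean log2 ratio was 2.84 higher in mechanoreceptors, against SDs of 0.23 in mechanoreceptors and 0.44 in the midline. An exact two-sided permutation test gave p = 0.1, the smallest that 20 splits of 3 against 3 libraries allow (0.15 adjusted over the 3 ratios computed). The 3 ratios were chosen after the counts were seen.

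**Figure D1:**
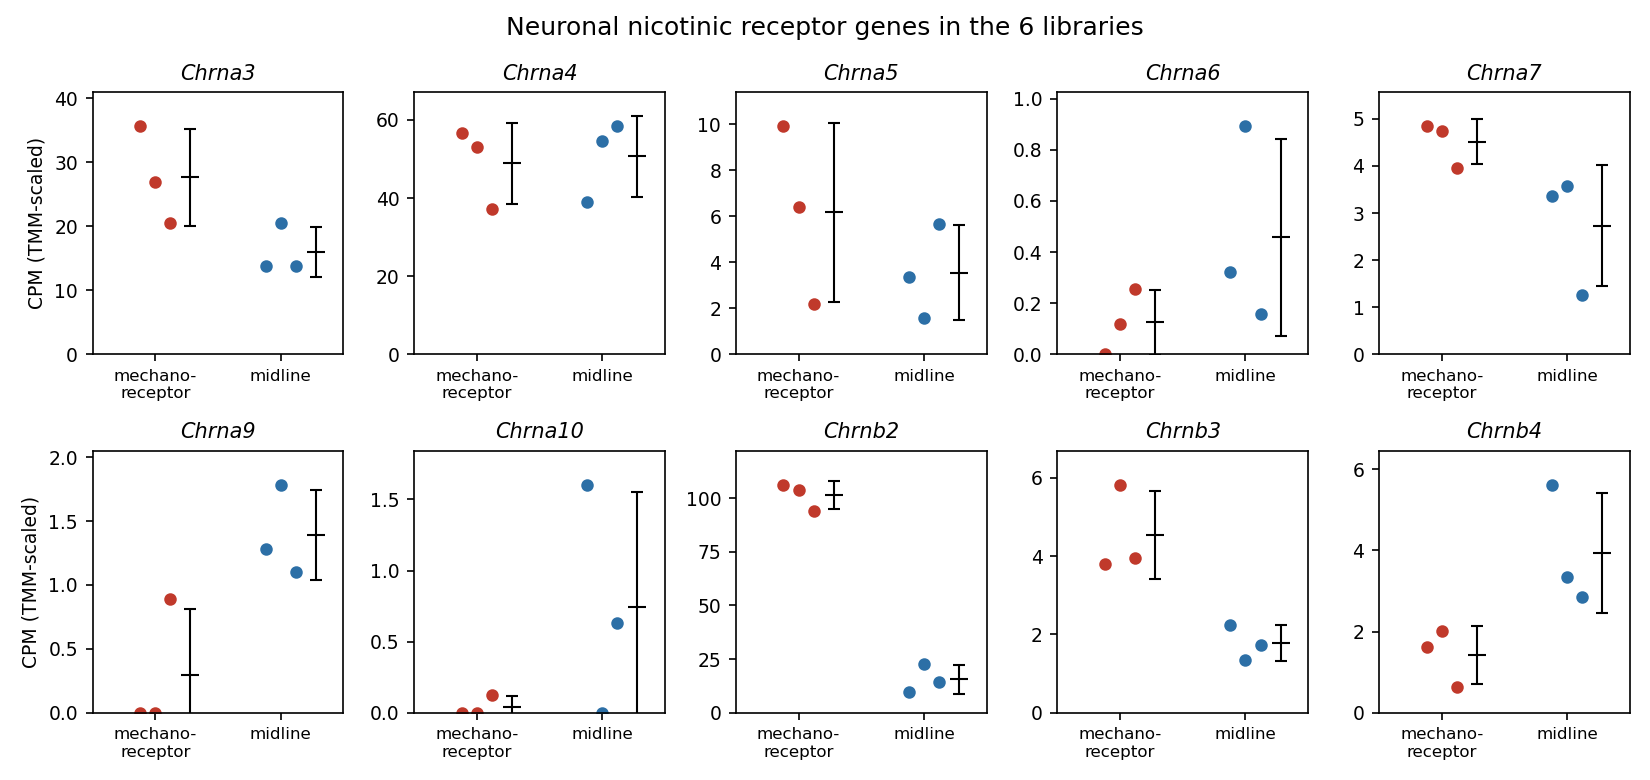
Level of each of the 10 genes (y axis, TMM-scaled CPM, linear from 0, a scale of its own per panel) in the 3 mechanoreceptor libraries (red, numbers 2, 8 and 9 from left) and the 3 midline libraries (blue, numbers 2, 3 and 5), with mean and SD in black, cut at 0. Chrnb2 stood at 93.9 to 106 CPM in mechanoreceptors and 9.62 to 22.8 CPM in the midline, while the Chrna4 libraries overlapped.

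Chrna3, Chrna5 and Chrnb4 lie next to each other on mouse chromosome 9 in the RefSeq annotation, Chrna3 between the other two. None of the 3 passed the test, and their fitted differences did not share a direction. Chrna3, the alpha subunit of the ganglionic receptor, had 309, 226 and 161 counts in mechanoreceptors and 86, 92 and 87 in the midline. In CPM the lowest mechanoreceptor library (20.6) stood just above the highest midline library (20.5), the others at 35.6 and 26.8 in mechanoreceptors and 13.79 and 13.7 in the midline. The log2 fold change was 0.79 (SE 0.31, edgeR adjusted p = 0.0784), and it passed without midline library 3 (edgeR adjusted p = 0.0422). The authors' deposited table marked Chrna3 as different, at -1.10 for midline over mechanoreceptor and a false discovery rate of 0.04.

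Chrnb4, the beta subunit of the ganglionic receptor, was fitted in the other direction at low levels. Its counts were 14, 17 and 5 in mechanoreceptors and 35, 15 and 18 in the midline, or 1.61, 2.02 and 0.639 CPM in mechanoreceptors against 5.61, 3.35 and 2.84 CPM in the midline. The libraries did not overlap in CPM, with midline library 2 highest. The log2 fold change was -1.45 (SE 0.62, 95% interval -2.88 to -0.02, edgeR adjusted p = 0.0998), and -0.51 on the deposited log2 values (limma adjusted p = 0.539). Chrna5, the accessory alpha subunit, ranged widely within each group, with 86, 54 and 17 counts in mechanoreceptors and 21, 7 and 36 in the midline (log2 fold change 0.79, SE 0.68, edgeR adjusted p = 0.389). Its groups overlapped.

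The promoter windows of Chrna3 and Chrnb4 are shown because these neighbours, on 1 strand and partners in 1 receptor, were fitted in opposite directions. They lie on the minus strand of GRCm38.p6 at chr9:55026513-55026812 and chr9:55048495-55048794, with capitals again at GC boxes.
Chrna3: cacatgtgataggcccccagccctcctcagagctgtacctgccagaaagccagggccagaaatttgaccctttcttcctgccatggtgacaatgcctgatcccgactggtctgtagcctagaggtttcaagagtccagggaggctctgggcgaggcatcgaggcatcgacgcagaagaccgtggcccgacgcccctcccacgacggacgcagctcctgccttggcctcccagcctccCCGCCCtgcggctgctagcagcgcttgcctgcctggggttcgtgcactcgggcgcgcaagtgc
Chrnb4: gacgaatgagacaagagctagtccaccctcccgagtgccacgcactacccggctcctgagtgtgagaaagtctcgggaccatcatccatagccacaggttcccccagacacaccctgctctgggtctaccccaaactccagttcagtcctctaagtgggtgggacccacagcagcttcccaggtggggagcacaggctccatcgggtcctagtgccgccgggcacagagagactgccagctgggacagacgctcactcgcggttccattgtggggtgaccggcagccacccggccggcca
The Chrna3 window held 1 GC box, and the Chrnb4 window did not hold these letters. The E-box letters stood at 3 places in the Chrna3 window, of which 2 overlap each other, and at 2 in the Chrnb4 window, which also held GGACAG once.

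Chrnb4 counts made up a smaller fraction of Chrna3 counts in mechanoreceptors, at 0.0453, 0.0752 and 0.0311, than in the midline, at 0.407, 0.163 and 0.207. The mean log2 ratio was 2.34 lower in mechanoreceptors, in 3 of 3 libraries, with SDs of 0.64 in mechanoreceptors and 0.68 in the midline (exact two-sided permutation p = 0.1, the smallest possible, 0.15 adjusted over 3 ratios). The ratio of Chrna5 to Chrna3 overlapped between groups, at 0.278, 0.239 and 0.106 in mechanoreceptors and 0.244, 0.0761 and 0.414 in the midline (exact permutation p = 0.9, 0.9 adjusted). Autonomic neurons carry Chrna3 and Chrnb4, and their 8 markers summed to 16.2, 8.43 and 8.94 CPM in mechanoreceptors and 72.3, 39.5 and 52.4 CPM in the midline. Of these, Dbh, which makes noradrenaline, had 30, 0 and 0 counts in mechanoreceptors against 68, 3 and 60 in the midline. Th, an enzyme of the same pathway, had 51, 36 and 33 counts in mechanoreceptors against 36, 0 and 12 in the midline. The part of autonomic neurons in the Chrna3 and Chrnb4 values was not tested. Of 5 genes listed as neighbours of the cluster, Psma4, a proteasome subunit gene that lies beside Chrna5, averaged 112 ± 10.9 CPM in mechanoreceptors, against 91.1 ± 6.21 CPM in the midline (log2 fold change 0.29, edgeR adjusted p = 0.213). Ireb2, an iron-regulatory protein gene (0.48, edgeR adjusted p = 0.0935), and Agphd1 (now Hykk) also did not pass. Adamts7 was higher in the midline (log2 fold change -2.21, SE 0.52, edgeR adjusted p = 0.0127) and lost its call without mechanoreceptor library 2 (edgeR adjusted p = 0.0545). Morf4l1 did not pass. These last 2 are next to each other but not next to the cluster in the mouse annotation.

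Chrna7 and Chrnb3 were low in both groups and did not pass the test. Chrna7 had 42, 40 and 31 counts in mechanoreceptors and 21, 16 and 8 in the midline, or 4.52 ± 0.487 CPM in mechanoreceptors against 2.73 ± 1.28 CPM in the midline (SD, n = 3 each; log2 fold change 0.73, SE 0.53, edgeR adjusted p = 0.309). Chrnb3 had 33, 49 and 31 counts in mechanoreceptors and 14, 6 and 11 in the midline, or 4.53 ± 1.12 CPM in mechanoreceptors against 1.77 ± 0.455 CPM in the midline (log2 fold change 1.33, SE 0.50, edgeR adjusted p = 0.0696). In both genes every mechanoreceptor library stood above every midline library. Chrnb3 passed with its 2 transcript rows summed (edgeR adjusted p = 0.0404), which hold the same 6 counts and so count each read again. On the deposited log2 values Chrnb3 (2.22, limma adjusted p = 0.0128) and Chrna7 (1.66, limma adjusted p = 0.049) both passed.

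Chrna6, Chrna9 and Chrna10 fell below the count filter and were not tested. Chrna6, a neighbour of Chrnb3 on chromosome 8 and its partner in dopaminergic neurons, had 0, 1 and 2 counts in mechanoreceptors and 2, 4 and 1 in the midline. Of the hair cell pair, Chrna9 had 0, 0 and 7 counts in mechanoreceptors and 8, 8 and 7 in the midline, and Chrna10 had 0, 0 and 1 in mechanoreceptors against 10, 0 and 4 in the midline. A count of 3, taken as the floor of a library, was worth 0.346 to 0.383 CPM in mechanoreceptors and 0.474 to 0.669 CPM in the midline, so lower levels were not detectable. The summed counts gave midline over mechanoreceptor ratios of 3.41 for Chrna6 (exact 95% interval 0.778 to 20.4), 4.80 for Chrna9 (1.99 to 13.2) and 20.5 for Chrna10 (3.11 to 865), which cover counting error only. With no count filter their edgeR adjusted p-values were 0.408, 0.274 and 0.125. Of the Chrna10 transcript, 1025 of 2513 bases lie in exons of some transcript of Art1, a gene on the opposite strand. In the annotation, 0 of these bases were found in a transcript paired with the Art1 row that was counted. That row had 0, 3 and 0 counts in mechanoreceptors and 145, 3 and 14 in the midline. Midline library 2 was highest for Chrna10 and for Art1, and the part of Art1 in the Chrna10 counts was not tested.

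Set against all genes tested, of which 18.8% were called higher in mechanoreceptors and 18.9% higher in midline libraries, the 7 tested members gave 1 call. At an unadjusted p under 0.05, Chrna3, Chrnb2 and Chrnb3 (3 genes) were fitted toward mechanoreceptors and Chrnb4 (1 gene) toward the midline. Of all genes tested, 37.8% passed the stricter adjusted cut. Their share at the unadjusted cut was not computed, so these 4 genes are not read as more than that background. No tool or setting tried called a member higher in the midline. In 5 of the 7 the groups did not overlap, against 54.8% of all genes tested. The median log2 fold change of the 7 was 0.79, against -0.05 over all genes. Upper-quartile scaling moved the median of all genes to -0.26. With it 36.9% of calls lay in the direction of mechanoreceptors, against 49.9% with TMM, and it left Chrnb2 at 2.50 (edgeR adjusted p = 0.00139). Chrnb2 was called in all 16 alternatives, with log2 fold changes from 2.49 to 3.30 and adjusted p-values up to 0.00761.

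**Figure D2:**
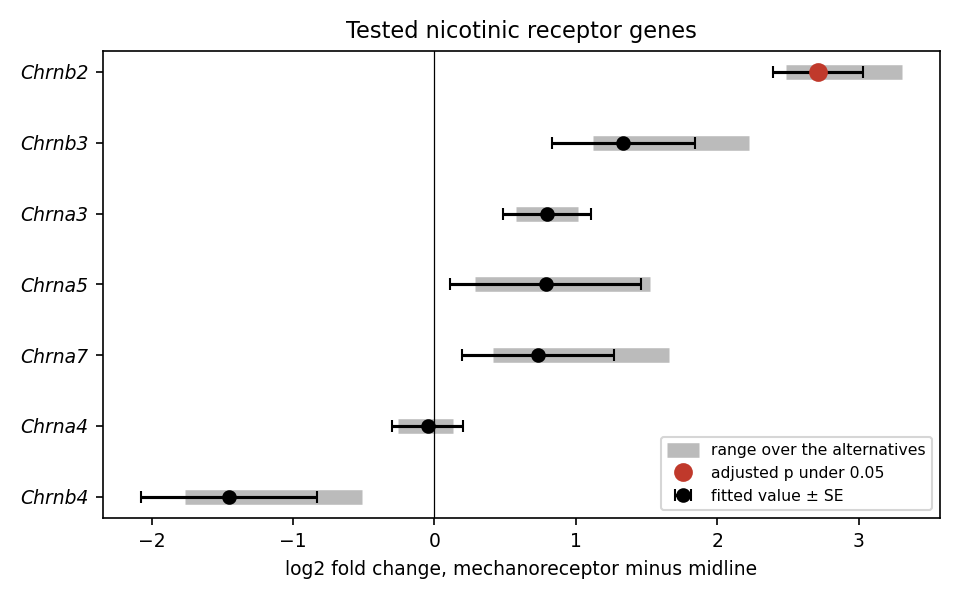
Log2 fold change, mechanoreceptor minus midline (x axis), of the 7 tested genes (y axis), as the edgeR value with its SE (black) over the range of all alternatives (grey). Chrnb2 at 2.71, in red, is the gene with an adjusted p under 0.05, and the range of Chrna4 crosses 0.

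Levels of different genes were set side by side as CPM per kilobase of transcript. In mechanoreceptors the order was Chrnb2 (15.8 ± 1.02), Chrna4 (10.7 ± 2.28), Chrna3 (6.35 ± 1.74), Chrna5 (3.29 ± 2.07), Chrna7 (2.17 ± 0.234), Chrnb3 (2.01 ± 0.498) and Chrnb4 (0.383 ± 0.191 CPM per kilobase, SD, n = 3). Chrna9, Chrna6 and Chrna10 followed at 0.0169 to 0.162 CPM per kilobase. Chrnb2 stood above Chrna4 and Chrnb3 above Chrnb4 without overlap, and all other neighbours in that order overlapped in range. In the midline Chrna4 led at 11.1 ± 2.26 CPM per kilobase, above Chrna3 (3.68 ± 0.896) in range. Below Chrna3 came Chrnb2 (2.43 ± 1.04), Chrna5 (1.89 ± 1.10), Chrna7 (1.32 ± 0.615), Chrnb4 (1.06 ± 0.397) and Chrnb3 (0.786 ± 0.202 CPM per kilobase), and every neighbour from Chrna3 down overlapped with the next. These Chrnb2 levels still hold the reads in the Adar overlap. An even share of Adar would be 21.4, 35.1 and 43.2 Chrnb2 counts in midline libraries 2, 3 and 5. The place of Chrnb2 in the order without that share was not computed. Another order divided the same counts of the whole transcript row by coding length. In it Chrnb3 and Chrna7 changed places in mechanoreceptors, as did Chrnb4 and Chrna7 in the midline. The 4 highest genes of each group kept their order.

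The summed level of the 10 genes was 46.9, 42.8 and 33.1 CPM per kilobase in mechanoreceptors and 20.6, 25.6 and 24.2 in the midline, without overlap. Of that sum Chrnb2 made up 35.4, 37.8 and 44.3% in mechanoreceptors and 7.31, 13.9 and 9.16% in the midline. Chrna4 made up 26.5, 27.1 and 24.6% in mechanoreceptors and 41.5, 46.9 and 52.8% in the midline. Chrna3 made up 15.4 ± 1.80% in mechanoreceptors and 15.6 ± 2.72% in the midline (SD, n = 3 each). The shares depend on the length used, and those of Chrnb2 still hold the reads in the Adar overlap. With coding length the counts remained those of the whole transcript row, so reads outside the coding part were included. That raises genes with a small coding part, such as Chrnb2 at 1506 of 6399 bases, against Chrna5 at 1317 of 1877. Per kilobase of coding length Chrnb2 made up 54.8 ± 4.63% in mechanoreceptors and 17.3 ± 4.98% in the midline, Chrna4 20.8 ± 1.65% in mechanoreceptors and 46.1 ± 5.38% in the midline, and Chrna3 14.6 ± 2.08% in mechanoreceptors and 18.2 ± 2.60% in the midline. Shares of 1 sum are tied to each other, so the lower share of Chrna4 in mechanoreceptors goes with the higher one of Chrnb2.

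**Figure D3:**
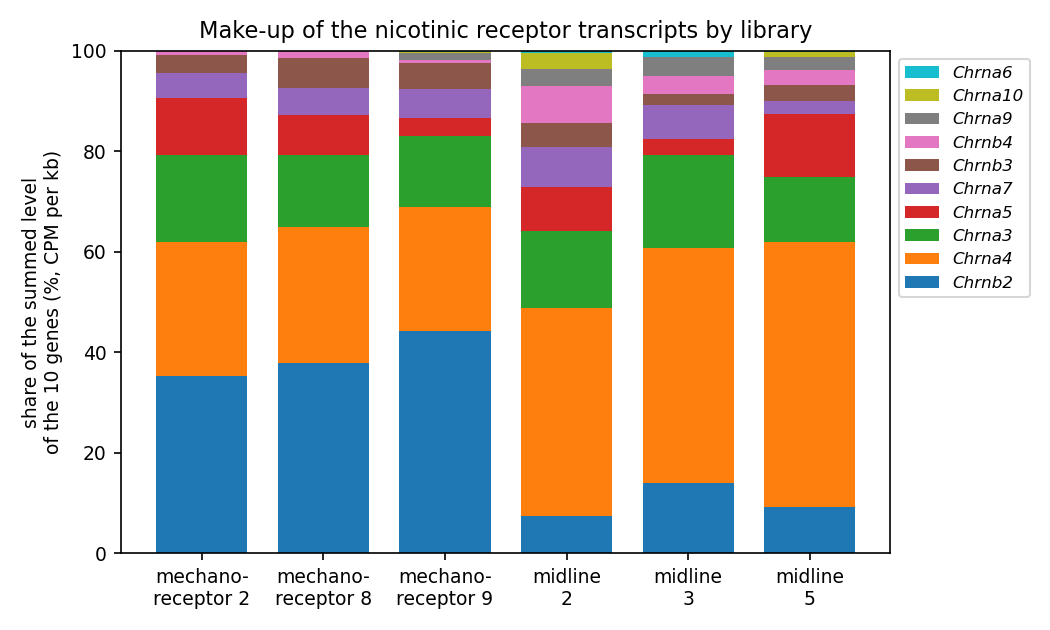
Share of each gene in the summed level of the 10 genes (y axis, percent of CPM per kilobase) in the 3 mechanoreceptor libraries (left) and the 3 midline libraries (right), as stacked bars with Chrnb2 at the bottom. Chrnb2 took 35.4 to 44.3% in mechanoreceptors, against 7.31 to 13.9% in midline libraries, where Chrna4 took 41.5 to 52.8%.

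The labels were set against markers of the cell types each sample could hold, in libraries of 12031898 to 13801474 counts in mechanoreceptors and of 5599811 to 8081153 counts in the midline. Sensory neuron markers together had 7002 to 8463 CPM in mechanoreceptors, against 431 to 805 CPM in the midline, with Ret at 788 to 1036 CPM in mechanoreceptors against 13.6 to 41.9 CPM in the midline. Roof plate markers summed to 1.78 to 6.11 CPM in mechanoreceptors and to 198, 594 and 884 CPM in midline libraries 2, 3 and 5. Of these midline sums Zic1 alone gave 112, 445 and 394 CPM, while Lmx1a gave 19.7, 15.4 and 75.5 CPM. Radial glia and astrocyte markers summed higher, to 1415, 4101 and 5078 CPM in the midline against 184 to 343 CPM in mechanoreceptors. Endothelial cell and pericyte markers summed to 464 to 560 CPM in the midline, against 64.7 to 132 CPM in mechanoreceptors. Schwann cell and satellite glia markers summed to 62.05, 120.6 and 68.2 CPM in mechanoreceptors, against 63.03, 26.77 and 23.99 CPM in the midline. Macrophage and microglia markers summed to 38.13 to 125.3 CPM in mechanoreceptors, against 107.1 to 200.5 CPM in the midline. Red blood cell markers summed to 384.5 to 662 CPM in mechanoreceptors, against 237.1 to 492 CPM in the midline. The part of these cells in the mechanoreceptor libraries was not tested. Midline library 2 stood apart by skeletal muscle markers, at 14150 CPM against 167 and 1412 CPM in libraries 3 and 5 and 7.04 to 10.8 CPM in mechanoreceptors. Midline library 3 stood apart by dorsal horn neuron markers, at 744 CPM against 119 and 235 CPM in libraries 2 and 5, with 206 to 334 CPM in mechanoreceptors, where Slc17a6, which sensory neurons share, gave most of the sum. Of these 8 dorsal horn markers Lbx1 was at 0 in all mechanoreceptor libraries and had 0, 1 and 0 counts in midline libraries 2, 3 and 5. Midline library 3 was also the highest midline library for Chrnb2, and without it the log2 fold change of Chrnb2 was 3.09 (edgeR adjusted p = 0.000153). The part of dorsal horn neurons in the midline level of Chrnb2 was not tested, and in bulk samples fewer cells of a type and less RNA per cell cannot be told apart. Without midline library 2 the value was 2.49 (edgeR adjusted p = 0.000408).

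The muscle-type receptor, the form at the neuromuscular junction, varied among the midline libraries in the order of a muscle gene. Of its 5 subunit genes 4 were tested and 3 were higher in the midline, as were 18.9% of all genes tested. Chrnd and Chrng passed the count filter only through their midline counts, which fixed their direction in advance. The 3 of 4 is therefore not read against that share. Chrnd had 0 counts in all mechanoreceptor libraries and 384, 10 and 38 in midline libraries 2, 3 and 5, at least 210-fold higher in the midline against 3 counts over the mechanoreceptor group, or at least 36.9-fold without midline library 2. Chrng, the fetal subunit, had 0, 3 and 0 counts in mechanoreceptors and 241, 6 and 29 in the midline, a ratio of 134-fold (exact 95% interval 45.5 to 656), or 26.9-fold (8.47 to 137) without midline library 2. These intervals cover counting error only, and the midline libraries themselves ranged from 1.34 to 38.7 CPM of Chrng. Chrnb1 had 27, 39 and 10 counts in mechanoreceptors and 426, 28 and 105 in the midline (log2 fold change -3.33, SE 0.88, edgeR adjusted p = 0.0204), and -1.90 without midline library 2 (edgeR adjusted p = 0.0517). Chrna1 had 26, 23 and 29 counts in mechanoreceptors and 525, 11 and 32 in the midline and did not pass (log2 fold change -3.28, edgeR adjusted p = 0.061, or -0.24 without midline library 2). Chrne, the adult subunit, had at most 4 counts in a mechanoreceptor library and at most 10 in a midline library. The order of the midline libraries in the 3 called subunits, 2 above 5 above 3, was that of Myh3, an embryonic myosin gene, at 4302, 26.5 and 478 CPM in libraries 2, 3 and 5. The called number was 1 without mechanoreceptor library 2 or 9 and with a minimum count of 30. The part of muscle RNA in these values was not tested.

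**Figure D4:**
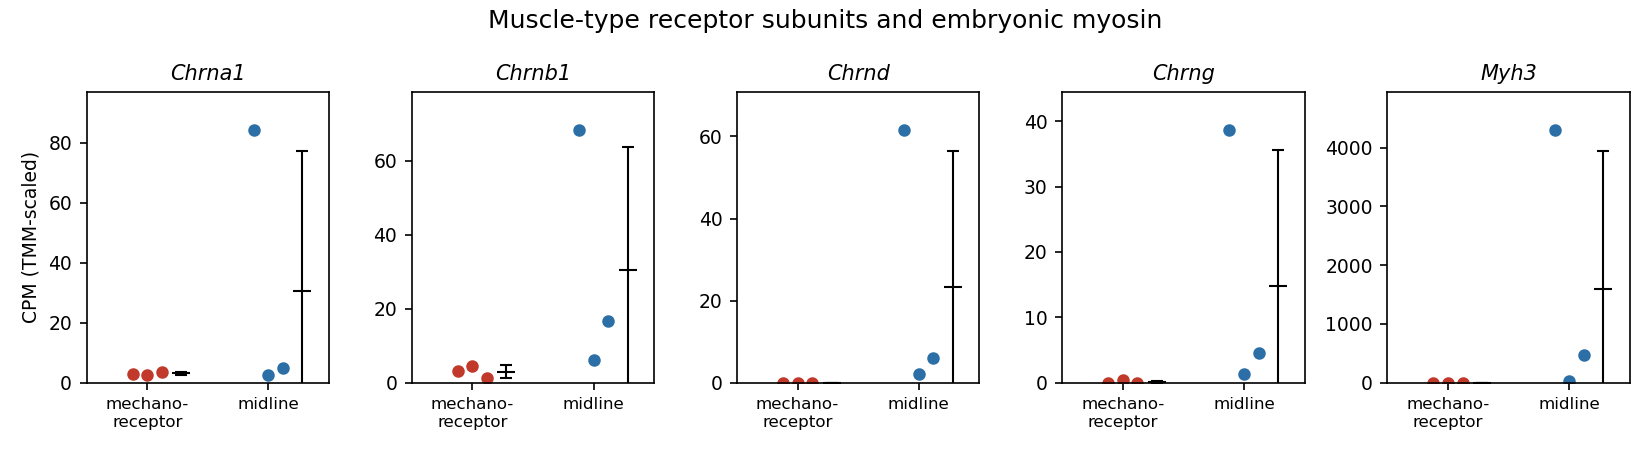
Levels (y axis, TMM-scaled CPM, a scale of its own per panel) of the muscle-type subunit genes Chrna1, Chrnb1, Chrnd and Chrng and of Myh3 in mechanoreceptor libraries 2, 8 and 9 (red) and midline libraries 2, 3 and 5 (blue), with mean and SD in black, cut at 0. Midline library 2 is the high point in every panel, at 4302 CPM for Myh3.

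Acetylcholinesterase and its membrane anchor were higher in mechanoreceptors, while the genes that make acetylcholine and load it into vesicles were low in both groups. Of 7 genes of acetylcholine handling 4 were tested, 3 of which were higher in mechanoreceptors, as were 18.8% of all genes tested. Ache, acetylcholinesterase, stood at 106, 136 and 72.0 CPM in mechanoreceptors and 13.5, 3.35 and 5.37 CPM in the midline (13.9-fold, log2 fold change 3.80, SE 0.51, edgeR adjusted p = 0.00154). Prima1, which anchors acetylcholinesterase in the membrane of neurons, stood at 33.1, 42.2 and 26.4 CPM in mechanoreceptors against 2.09, 1.78 and 2.999 CPM in the midline (log2 fold change 3.86, SE 0.36, edgeR adjusted p = 0.000446). Slc5a7, the high-affinity choline transporter, was higher at 10.7 ± 2.53 CPM in mechanoreceptors against 3.52 ± 0.726 CPM in the midline (log2 fold change 1.60, SE 0.40, edgeR adjusted p = 0.0161), and lost its call without mechanoreceptor library 2 (edgeR adjusted p = 0.0669). Chat, the synthesis enzyme, had 0, 3 and 1 counts in mechanoreceptors and 5, 3 and 16 in the midline. Slc18a3, the vesicular transporter, had 1, 9 and 5 counts in mechanoreceptors and 8, 11 and 6 in the midline. Neither was tested. Bche, butyrylcholinesterase, did not pass (log2 fold change -0.88, edgeR adjusted p = 0.128). Colq, the collagen tail of the muscle esterase, had 1, 5 and 0 counts in mechanoreceptors and 129, 3 and 19 in the midline, highest in midline library 2 as the muscle markers were.

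Of the 5 muscarinic receptor genes, the G protein-coupled acetylcholine receptors, 3 were tested and 1 was called higher in mechanoreceptors, as were 18.8% of all genes tested. Chrm1 and Chrm5 were not tested. Chrm1 had 0, 0 and 3 counts in mechanoreceptors and 9, 4 and 11 in the midline. Chrm5 had 9, 21 and 35 counts in mechanoreceptors and 3, 2 and 1 in the midline. Chrm2 stood at 25.6, 19.01 and 17.6 CPM in mechanoreceptors and 3.69, 16.5 and 3.79 CPM in midline libraries 2, 3 and 5 (log2 fold change 1.40, SE 0.60, edgeR adjusted p = 0.099). Midline library 3 lay close to the mechanoreceptors, and without it the log2 fold change of Chrm2 was 2.47 (edgeR adjusted p = 0.00208). Chrm4 stood at 11.3, 20.3 and 11.5 CPM in mechanoreceptors against 6.90, 4.68 and 9.16 CPM in the midline (1.05, SE 0.41, edgeR adjusted p = 0.0775). Chrm3 passed narrowly, at 11.9, 7.37 and 4.60 CPM in mechanoreceptors against 3.37, 0.669 and 2.21 CPM in the midline (1.90, SE 0.64, edgeR adjusted p = 0.0479). It lost its call in 9 alternatives, among them RLE scaling (edgeR adjusted p = 0.0511) and each mechanoreceptor library left out (edgeR adjusted p = 0.0549 to 0.163).

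Factors that assemble or modulate nicotinic receptors gave 1 call in each direction. Of 10 such genes tested, 1 (Lypd1) was higher in mechanoreceptors and 1 (Tmem35) in the midline, against 18.8% and 18.9% of all genes in these directions. Their median log2 fold change was 0.02, against -0.05 over all genes. Lypd1, a membrane-anchored protein of the Ly6 family that damps nicotinic receptors, stood at 153, 198 and 144 CPM in mechanoreceptors and 14.4, 43.9 and 22.1 CPM in the midline (log2 fold change 2.63, SE 0.40, edgeR adjusted p = 0.00241). Tmem35, listed today as Tmem35a and known as the assembly chaperone NACHO, was higher in the midline, at 14.0, 15.1 and 23.8 CPM in mechanoreceptors against 39.3, 82.5 and 98.3 CPM in the midline (log2 fold change -2.06, SE 0.38, edgeR adjusted p = 0.00513). Both kept their calls in all alternatives. Ric3, another chaperone of the receptors, did not pass (65.9 ± 13.0 CPM in mechanoreceptors against 42.0 ± 15.5 CPM in the midline, log2 fold change 0.65, edgeR adjusted p = 0.118), nor did Unc50 (-0.15, edgeR adjusted p = 0.634). Ric3 passed without midline library 3 (0.98, edgeR adjusted p = 0.0202). In the same channel family, Htr3b, a subunit of the serotonin-gated channel, stood at 53.7, 57.1 and 49.2 CPM in mechanoreceptors and 2.73, 6.25 and 2.05 CPM in the midline (log2 fold change 3.89, SE 0.42, edgeR adjusted p = 0.000719). Its partner Htr3a, without which it forms no channel, was low at 2.77, 2.02 and 7.02 CPM in mechanoreceptors against 1.44, 0.892 and 1.58 CPM in the midline, and did not pass (1.56, SE 0.67, edgeR adjusted p = 0.0984).

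**Figure D5:**
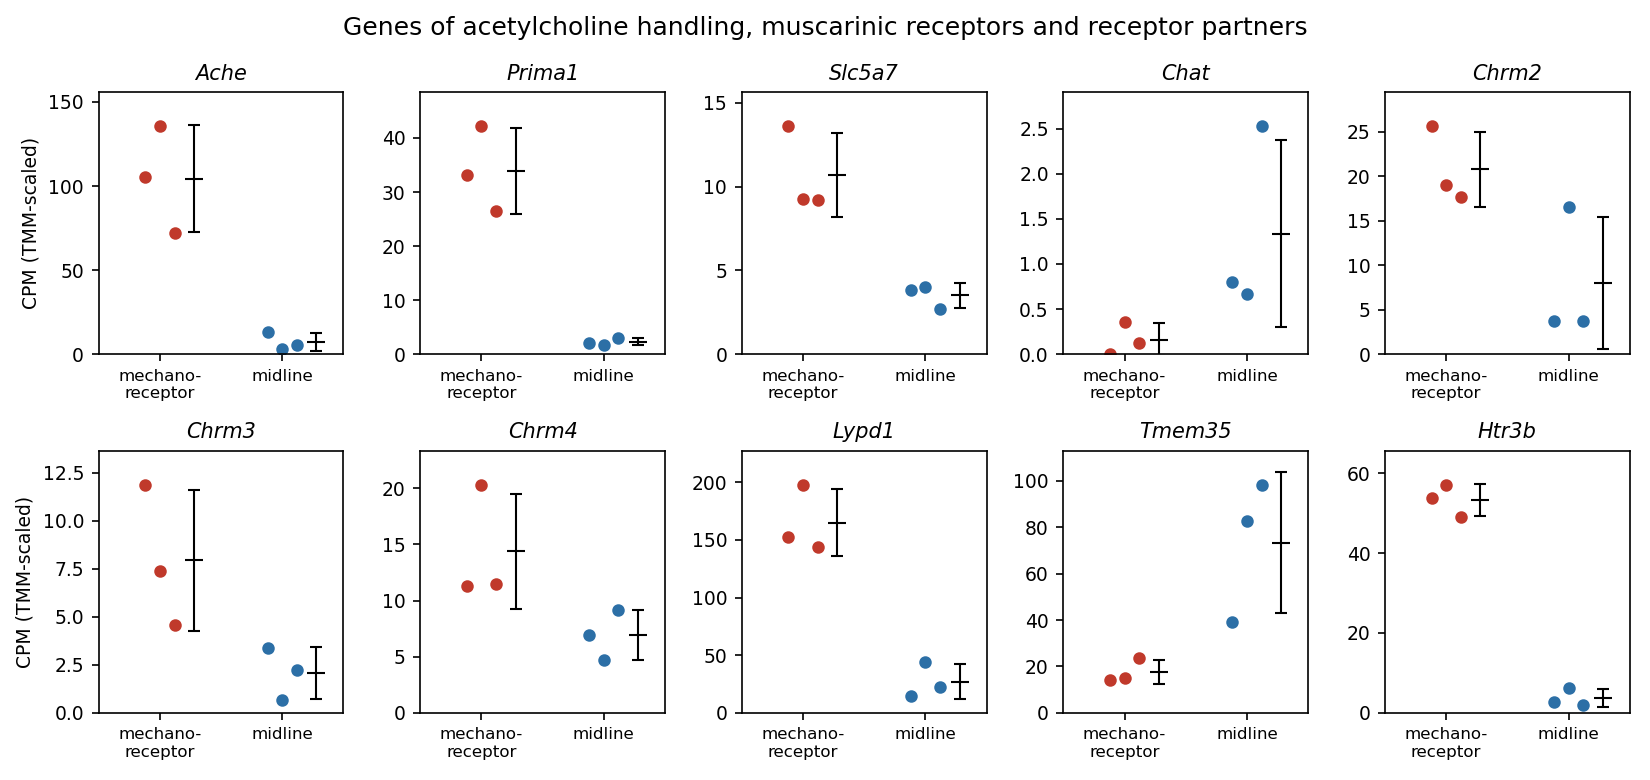
Levels (y axis, TMM-scaled CPM, a scale of its own per panel) of genes of acetylcholine handling (Ache, Prima1, Slc5a7, Chat), muscarinic receptors (Chrm2, Chrm3, Chrm4), receptor partners (Lypd1, Tmem35) and Htr3b in mechanoreceptor libraries 2, 8 and 9 (red) and midline libraries 2, 3 and 5 (blue), with mean and SD in black, cut at 0. Ache stands at 72.0 to 136 CPM in mechanoreceptors and 3.35 to 13.5 CPM in the midline, while Tmem35 stands at 14.0 to 23.8 CPM in mechanoreceptors and 39.3 to 98.3 CPM in the midline.

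For the 3 members with at least 10 CPM in the higher group, the 3 genes with the most like pattern over the 6 libraries were found by the Euclidean distance of centred log2(CPM + 1) values. For Chrnb2 these were Rnf157 (distance 0.230), Pik3cd (0.310) and Klc1 (0.341), with log2 fold changes of 2.59, 2.65 and 2.54. For Chrna3 they included Trhde (0.198) and Arhgef11 (0.226). For Chrna4 they were 4833422C13Rik (0.175), Pramef8 (0.188) and Nudt19 (0.212), each with a log2 fold change within 0.05 of 0. With 6 libraries in 2 groups the distance rests mostly on the size of the group difference.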

How the data were processed

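RNA of 3 mechanoreceptor and 3 midline libraries was sequenced. The authors deposited whole-number read counts per RefSeq transcript row, and the submitters' processing notes name mm9 as the genome build and edgeR without a version. Aligner and counter are not given in the sources used here. Besides counts, the deposited table holds log2 expression values whose largest value is equal in all samples, and, per the file headers, a log2 fold change and a p-value adjusted as a false discovery rate. The authors' mark of a difference stood exactly where that rate was under 0.05 and the fold at least 2, checked in 28644 rows. Total counts ran from 12031898 to 13801474 in mechanoreceptors, against 5599811 to 8081153 in the midline. Replicate pairs differed by more than sampling noise (chi-square per degree of freedom 12.9 to 62.0), so none was merged as 1 library deposited again, which does not show that they are independent.

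The transcript row with the highest summed count stood for each gene. Counts were tested with edgeR 4.0.16 in R 4.3.3 (filterByExpr with minimum count 10 and minimum total 15, TMM scaling, glmQLFit and glmQLFTest), with Benjamini-Hochberg adjustment over 15314 genes and calls at an adjusted p under 0.05. The fold change is mechanoreceptor minus midline, and its SE is its size divided by the square root of F. Alternatives were RLE and upper-quartile scaling, other count filters, DESeq2 1.42.0, limma 3.58.1 (voom, and on the deposited log2 values), other transcript rows and each library left out. Lengths, exon overlaps and neighbours came from GENCODE M21 and RefSeq on GRCm38, another build than mm9, so overlaps may differ there. RefSeq promoter windows matched 8 of the 10 genes. All 10 are named. From each related list the up to 3 called genes per direction and up to 2 others with the highest mean CPM are named, and other list genes were named after their values were seen. A gene that these rules would name is not reported here. The genes and lists were chosen with earlier results of these data known.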

Additional observations from a re-analysis of the deposited data

How the results depend on the processing

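Chrnb2 kept its direction and its call under every alternative run. The number of family members called higher in mechanoreceptors was 1, but 3 with limma on the deposited log2 values (with Chrna7 and Chrnb3 added) and 2 with transcript rows summed (with Chrnb3 added). With 1 library left out it lay from 1 to 2, and was 2 without midline library 3 (with Chrna3 added). The number called higher in the midline was 0 throughout. The number of all genes called, 5788, lay from 3755 to 6182 with 1 library left out. The 3755 came without mechanoreceptor library 8. The log2 fold change of Chrna4, -0.05, turned to 0.042 with no count filter, and lay from -0.18 to 0.13 with 1 library left out, being positive without mechanoreceptor 9 (0.13), midline 3 (0.012) or midline 5 (0.10). That of Unc50, -0.15, lay from -0.29 to 0.081 with 1 library left out, positive without midline library 5. The cause of these moves was not tested. No paired analysis was possible because the groups share only the replicate number 2. Chrna6, Chrna9 and Chrna10 were kept out of the test by the count filter, and the part of depth in this was not tested.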
